A study of Drosophila melanogaster with 33 samples.

Results

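The table of RNA editing sites in heads of the fruit fly Drosophila melanogaster listed many exon sites with an editing level in nascent RNA and no level in mRNA. The sites described here are exon sites with N/A in place of a yw mRNA level, in gene entries that had at least 2 listed sites of any kind. There were 279 such sites in 105 gene entries. They made up 76.6% of the 364 exon sites without an mRNA level, and the whole table held 1350 sites in 395 entries. Of its 621 exon sites, 257 had an mRNA level, and none of its 729 intron sites had one. Every site that lacked a yw mRNA level also lacked the level of Canton S mRNA, the other strain measured.

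The members were thus chosen by a measured column, the presence or absence of an mRNA level. The sources used here do not say by what criterion a site received an mRNA level, and such a criterion can depend on the level itself. Differences in nascent level between the members and exon sites with an mRNA level are therefore given as a description, with no test. The minimum of 2 listed sites left out 85 exon sites without an mRNA level, each alone in its gene entry, with a median nascent level of 17%. Just inside the minimum, 47 members lay in 32 entries of exactly 2 listed sites, and their median was also 17%.

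Flies of all groups were labelled 3 to 4 days old and had been kept in cycles of 12 h of light and 12 h of dark. Head nascent RNA, which is still attached to chromatin while it is transcribed, was sequenced in 2 libraries each of ADAR0, FM7a and yw (yellow white) males, all prepared on a small scale from 40 to 45 heads. ADAR0 is named for the loss of Adar, the fly's editing enzyme gene, and FM7a is a strain with a balancer X chromosome, so these strains can differ on the X in more than Adar. Larger preparations of nascent RNA came from yw flies collected over the light:dark cycle, with 12 libraries in 2 replicate sets of 6 times of day, and all nascent RNA had been depleted of polyadenylated RNA. Polyadenylated mRNA came from 2 yw libraries and 12 Canton S libraries, and 1 library held genomic DNA of yw flies, labelled as head but extracted from whole flies per the protocol. The table holds editing levels and no expression values, so the tissue label could not be checked against marker genes, and Adar expression in ADAR0 males could not be read. Reference sequence of the genome build named for the data was not used here, so no sequence around a site is shown.

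ADAR enzymes deaminate adenosine to inosine in stretches of RNA that pair with themselves, and inosine is read as guanosine by reverse transcriptase and by the ribosome. Flies carry a single Adar gene, most active in the nervous system, and many of its known targets are coding exons of ion channels and synaptic proteins. In such exons the pairing partner is often a stretch of the following intron, so that the structure exists in nascent RNA before splicing removes the intron. An editing level is the share of reads at a site that carry the edited base.

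Levels below are percent of reads, rounded to 1 percentage point in the deposited table, and positions are those of the table, on the dm3 build. The table marks a site as exon or intron and does not split exons into coding and untranslated parts. The level of all 12 light:dark libraries pooled is called the nascent level. The read depth behind each RNA level is unknown, so no interval or detection limit can be given, and 0% is a listed value, not proof that editing is absent. The only replicate error came from the 2 nascent sets, of which only set 1 is described in the labels as depleted of rRNA. Over the 279 members the sets differed by a median of 3 percentage points, which gave an SD of 3.83 points for a level. The sets were more than 10 points apart at 21 members (7.53%). Set 1 was higher at 149 members, set 2 was higher at 95 and the sets were equal at 35. At the 160 exon sites of the same genes that had an mRNA level the SD was 4.82 points, and set 1 was higher at 125 of them. Pearson's r between the sets was 0.944 across the members and 0.969 across the exon sites with an mRNA level, as a description across sites that share their libraries. Genomic DNA covered the members with 15 to 112 reads (median 38) and the exon sites with an mRNA level in the same genes with 17 to 88 reads (median 44).

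**Figure D1:**
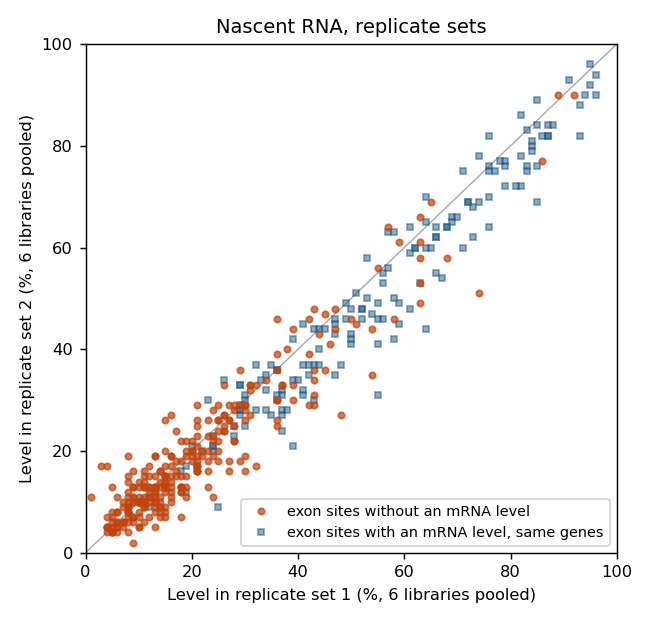
Nascent editing level (percent of reads) in replicate set 2 against replicate set 1, each a pool of 6 libraries. Circles are the 279 exon sites without an mRNA level, squares the 160 exon sites of the same genes with one, and the line marks equal levels. The members crowd toward the low end and spread about the line with an SD of 3.83 points per level.

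The members were spread thinly over most genes and densely over a few. Of the 105 entries, 37 held 1 member, 35 held 2, 22 held 3 to 5, and 11 held 6 or more. Ranked by number of members, with ties taken by name, the first 10 entries held 87 of the 279 (31.2%). They were para with 18, Msp-300 and NaCP60E with 10 each, shot with 9, CG42540 with 8, eag and pan with 7 each, and CG33464, Ca-alpha1T and Rya-r44F with 6 each. The entry mbl also had 6, at 12% to 42%. By chromosome, 68 members (24.4%) lay on X, 67 (24.0%) on 2R, 61 (21.9%) on 3R, 40 (14.3%) on 2L, 31 (11.1%) on 3L and 12 (4.3%) on 4. Over the whole table the shares were 22.4% on X, 14.5% on 2R, 17.5% on 3R, 13.5% on 2L, 15.5% on 3L and 9.19% on 4. The whole table includes 729 intron sites, which the rule kept from being members, so the 2 sets of shares are not like with like. The heterochromatic scaffolds, with 61 listed sites on 2RHet and 36 on 3LHet, held no member.

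Nascent levels of the members were low. Their median was 15%, with quartiles of 10% and 26% and a range of 4% to 91%, and 15 members (5.38%) were at 50% or more. The 160 exon sites of the same genes with an mRNA level had a median of 51% and a range of 11% to 95%, and 84 of them (52.5%) were at 50% or more. The distributions overlapped only in part, since 71 members (25.4%) lay below the lowest exon site with an mRNA level, and 15 members lay above the median of those sites. The members' median was 16% in set 1 and 15% in set 2. Across the 12 light:dark libraries, the 5th percentile of the level was deposited for each site, and its median was 6% for the members and 37% for the exon sites with an mRNA level. The 272 intron sites listed for the same genes had a median nascent level of 17%, and all 1350 sites had a median of 21%.

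Of the 105 entries, 64 also held an exon site with an mRNA level. Within these genes the median of the members was lower in 60 (93.8%) and higher in 4, in the pool, and lower in both replicate sets in those 60. The median difference per gene was −32 percentage points (−34 in set 1 and −31.75 in set 2). It ran from −70 points in slo to 29.5 points in GluClalpha. In 50 genes every member lay below every exon site with an mRNA level, and in 14 the ranges overlapped. The other 41 entries held no exon site with an mRNA level, and 22 of them had no intron site either. Their 87 members had a median of 18%, against 15% for the 192 members in the 64 genes. In the 47 entries that had intron sites, the median of the members lay below that of the introns in 21, above it in 24 and level with it in 2, with a median difference of 0.5 points.

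**Figure D2:**
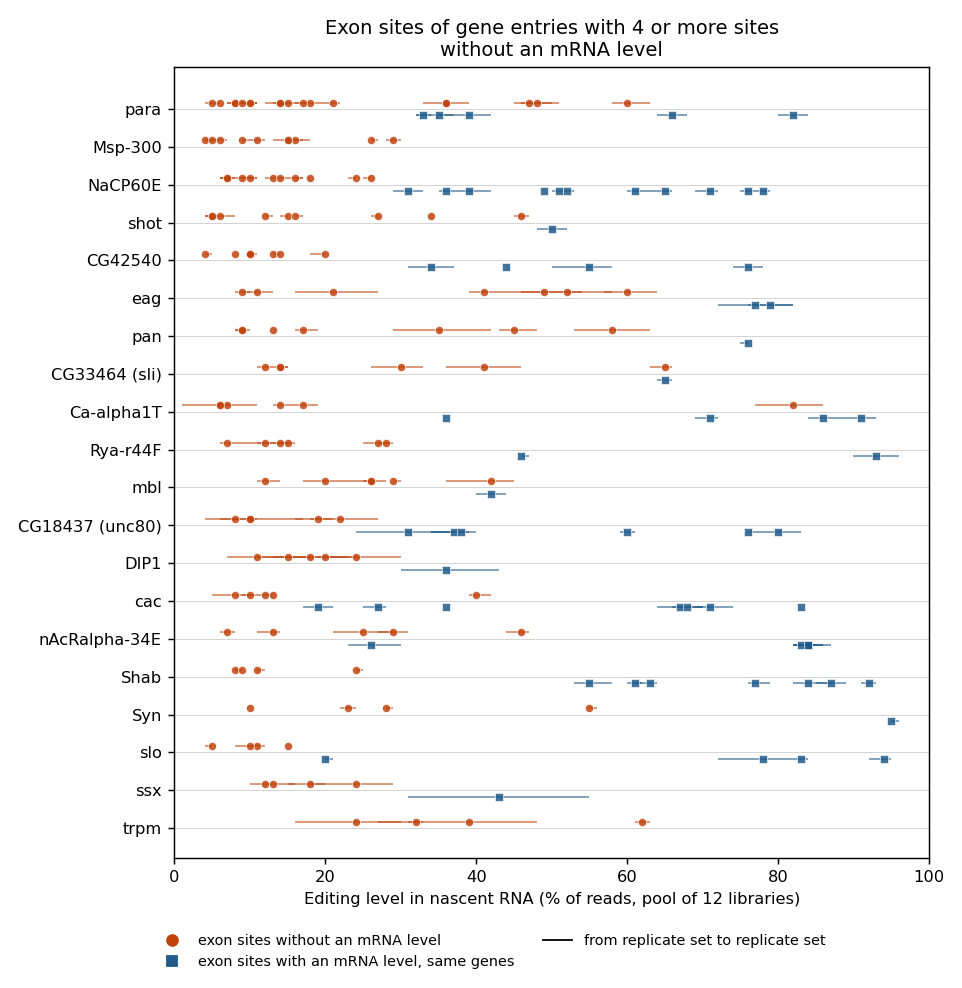
Nascent editing level (percent of reads, horizontal axis) of every exon site in the gene entries with 4 or more members. Circles are sites without an mRNA level, squares are sites of the same gene with one, and each thin line joins the levels of the 2 replicate sets. In para the 18 members run from 5% to 60% and the 5 sites with an mRNA level from 33% to 82%, and Msp-300 and trpm have members only.

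Voltage-gated channels and their accessory subunits held the most members of any list examined. Of 29 listed genes 16 had a member, with 72 members in all (25.8%) at a median of 14%. The 65 exon sites with an mRNA level in the same genes had a median of 65%. These 65 were out of 160 such sites in all entries with members, a larger share than that of the members. The share of all listed sites in these genes was not computed, so no concentration of members in channel genes is claimed. Members were lower in 12 of the 15 genes with both kinds and higher in 3, namely Ca-alpha1D, stj and unc79.

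The sodium channel gene para, whose product carries the action potential, held members along 47604 bases of X, from X:16365262 to X:16412866. Its 18 members ran from 5% to 60% with a median of 14.5%, and its 5 exon sites with an mRNA level ran from 33% to 82% with a median of 39%. The highest member, X:16412866, was at 63% in set 1 and 58% in set 2, and its next-base neighbour X:16412865 was at 11% and 9%. X:16412866 stood at 0% in ADAR0 males, 63% in FM7a males and 55% in yw males. Most para members lay below all of the gene's sites with an mRNA level, and the ranges overlapped.

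NaCP60E, a relative of para, had 10 members between 7% and 26% and 11 exon sites with an mRNA level between 31% and 78%, so the groups did not overlap. Their medians were 13.5% and 52%. Each of the 10 members differed by 5 points or less between the sets.

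Among calcium channel genes, Ca-alpha1T, a T-type channel, had 5 members between 6% and 17%. Its sixth member, X:6009458, was at 86% in set 1 and 77% in set 2. That site was at 1% in ADAR0 males, 78% in FM7a males and 91% in yw males. The 4 Ca-alpha1T exon sites with an mRNA level ran from 36% to 91%, and the difference of the medians was −68 points. Ca-alpha1D, an L-type channel, held the highest member of all, 2L:16179245, at 92% in set 1 and 90% in set 2. It was at 0% in ADAR0 males, 84% in FM7a males and 89% in yw males. An exon site of Ca-alpha1D with an mRNA level lay 218 bases away and was also at 91% in the pool. Thus the highest member and its neighbour differed by less than the spread between the sets.

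The presynaptic calcium channel cac had 5 members between 8% and 40% with a median of 12%, and 7 exon sites with an mRNA level with a median of 67%. For stj, an accessory calcium channel subunit, the members were at 31% and 37%, against 68%, 31% and 23% at the exon sites with an mRNA level. The stj difference of the medians was −1 point in set 1 and 5.5 points in set 2, so its direction was not the same in the sets. Ca-beta, another accessory subunit, had members at 16% and 19%, against 18% and 33%. The ranges overlapped in all 3 genes.

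Wide gaps within a gene were also found in potassium channel genes. In slo, the calcium-activated channel, the 4 members were at 11%, 10%, 5% and 15%, and the 4 exon sites with an mRNA level were at 83%, 94%, 78% and 20%. The difference of the medians was −73 points in set 1 and −65.5 points in set 2. Shab, a delayed rectifier, had 4 members between 8% and 24%, against 55% to 92% at 7 sites with an mRNA level, and its difference was −67 points. The groups did not overlap in either gene. The channel gene eag stood out for high members. Its 7 members were at 49%, 9%, 11%, 52%, 21%, 41% and 60%, and its 2 sites with an mRNA level were at 79% and 77%. In ADAR0 males all 7 were at 0%, and in yw males they ran from 4% to 80%.

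The list of voltage-gated channels also took in the leak channel na and its partners unc79 and CG18437, named unc80 in RefSeq. The 5 members of CG18437 ran from 8% to 22%, below all 6 of its sites with an mRNA level, at 31% to 80%. In unc79 the 3 members were at 8%, 22% and 26%, and its only site with an mRNA level was at 21%. That unc79 site was at 25% in set 1 and 9% in set 2, so the direction was not the same in the sets.

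Ligand-gated receptors and calcium-release channels formed another list. Of 27 listed genes 7 had a member, with 20 members at a median of 20%, against 73% at 15 exon sites with an mRNA level. Members were lower in 4 of 5 genes with both kinds and higher in 1. That gene was GluClalpha, the glutamate-gated chloride channel. Its members lay on adjacent bases, 3R:15579485 at 65% in set 1 and 69% in set 2, and 3R:15579486 at 89% and 90%. They stood at 0% and 0% in ADAR0 males, 60% and 85% in FM7a males and 60% and 85% in yw males. The GluClalpha sites with an mRNA level lay 9870 bases away or more and were at 67% and 31%. Neither member was below either of these sites in the pool.

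Rya-r44F, the ryanodine receptor that releases calcium from internal stores, had 6 members between 7% and 28%, against 46% and 93% at its sites with an mRNA level. In males its members were low, with medians of 0% in ADAR0, 1% in FM7a and 4% in yw. The nicotinic acetylcholine receptor gene nAcRalpha-34E, named nAChRalpha5 in RefSeq, had 5 members at 13%, 7%, 25%, 46% and 29%, against 84%, 84%, 83%, 26% and 84%. Here 3 of the 5 members had no FM7a level and were listed at 0% in yw males, and the same held for 2 of the sites with an mRNA level. In nAcRalpha-30D, another receptor subunit, the adjacent members were at 23% and 47%, against 54% to 81% at 4 sites with an mRNA level.

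Synaptic vesicle release was represented by 9 of 33 listed genes, with 21 members at a median of 13%, against 44% at 19 exon sites with an mRNA level. Members were lower in all 7 genes with both kinds, of which cac was 1. Syn, encoding the vesicle protein synapsin, had members at 10%, 23%, 28% and 55%, against 95% at its site with an mRNA level. The vesicle priming gene unc-13 had members at 6%, 4% and 6%, against 47%, 21% and 33%. Rim, an active zone gene with no exon site with an mRNA level, had members at 61% and 8%. The Rim site at 61%, 3R:13708487, was at 74% in set 1 and 51% in set 2, the widest gap between sets of any member. Those 2 values lie further apart than the SD between sets over all members.

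Cytoskeletal genes held many members in few genes. Of 33 listed genes 3 had a member, with 21 members at a median of 15%, against 47.5% at 2 sites with an mRNA level. Msp-300, a nesprin that links nuclei to the cytoskeleton, had 10 members and no other listed site, at 4% to 29% over 61789 bases of 2L. In males the Msp-300 members had medians of 0% in ADAR0, 4% in FM7a and 7.5% in yw. The spectraplakin gene shot, whose product joins actin to microtubules, had 9 members between 5% and 46% and 1 site with an mRNA level at 50%. The highest shot member, 2R:9781439, was at 45% in set 1 and 47% in set 2. It was at 0% in ADAR0 males, 0% in FM7a males and 26% in yw males. The entry dlt, whose identifier belongs to alpha-Spec in RefSeq, had members at 11% and 15%, against 45% at its site with an mRNA level.

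The remaining lists held few members. Among 19 genes of ATPases, ion pumps and exchangers, Calx, a sodium-calcium exchanger, had members at 12% and 19%, against 55%, 56% and 29% at its sites with an mRNA level. The related exchanger gene Nckx30C had a member at 33%, against 82% and 86%. In phototransduction 2 of 20 genes had a member. These were rdgB, at 13% and 11%, and norpA, the phospholipase C of the light response, at 6%. Neither had a site with an mRNA level. Pde1c, a cyclic nucleotide phosphodiesterase, was the sole gene with a member among the 43 genes listed for kinases, phosphatases and second messengers. Its members were at 16% and 24%, against 62% at its site with an mRNA level. The adhesion gene CadN had a member at 8%, which was at 7% in ADAR0 males, 1% in FM7a males and 4% in yw males. The clock gene tim had a member at 15%, against 30%. The RNA-binding genes elav and ps had members at 13%, 12% and 10%. The lists for glia and fat body, with 11 and 12 genes, had no member. The lists were not complete for their classes, and outside every list lay 137 members in 62 entries, among them Doa and hppy.

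Among the largest entries outside the lists were CG42540, pan and CG33464. CG42540 had 8 members between 4% and 20%, against 34% to 76% at 4 sites with an mRNA level, and the groups did not overlap. The members of pan, the fly's TCF transcription factor of Wnt signalling, lay within 528 bases of chromosome 4. They were at 45%, 13%, 9%, 9%, 17%, 35% and 58%, against 76% at the site with an mRNA level. The pan member at 58% was at 10% in ADAR0 males, 43% in FM7a males and 40% in yw males. CG33464, matched to sli in RefSeq, the gene for the guidance ligand Slit, had 6 members within 613 bases of 2R, at 12% to 65%, against 65% at its site with an mRNA level. The highest, 2R:11759340, was at 63% in set 1 and 66% in set 2, and at 0% in ADAR0 males, 22% in FM7a males and 33% in yw males.

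By coordinate the members were clustered much as the other sites of their genes. The median distance to the nearest listed site was 47 bases, against 30.5 bases for exon sites with an mRNA level and 42.5 bases for intron sites of the same genes. It was 99 bases over all 1350 sites. Within 50 bases of another listed site lay 141 members (50.5%), against 56.2% of the exon sites with an mRNA level, 51.8% of the intron sites and 44.6% of all sites. On the next base to a listed site lay 41 members (14.7%). Of members in genes that also had a site with an mRNA level 57.3% lay within 50 bases of a neighbour, against 35.6% in the other 41 entries. This split is partly set by its definition. Sites with an mRNA level counted as neighbours in the first group only, and 22 of the other 41 entries listed members alone. Neighbouring sites can share reads and a gene's sites share its transcripts, so sites are not independent replicates.

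**Figure D3:**
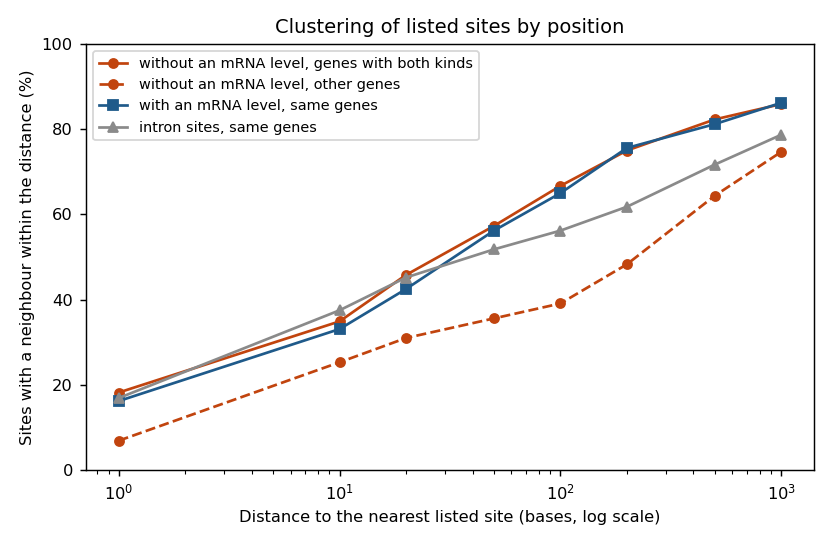
Share of sites (percent) with another listed site within the distance on the horizontal axis (bases, log scale). Solid circles are members in genes that also have exon sites with an mRNA level, circles on the dashed line members of the other genes, squares the exon sites with an mRNA level and triangles intron sites. At 50 bases the solid lines lie between 51.8% and 57.3%, and the dashed line is at 35.6%.

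Of the 192 members in genes with both kinds, 14 lay on the base next to an exon site with an mRNA level, 54 (28.1%) within 50 bases and 116 (60.4%) within 1000 bases. Members next to such a site had a median level of 12.5% and none was over 21%. Those 2 to 50 bases away had a median of 14%, those 51 to 1000 bases away 18.5% and those further away 14.5%. The level of a member thus changed little with distance, and the highest members lay more than 50 bases away.

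Close pairs gave a comparison within 1 stretch of RNA. In 54 pairs, each a member and the nearest exon site with an mRNA level at most 50 bases away, the member was lower in 53 and higher in 1. The pairs drew on 42 different sites with an mRNA level in 31 gene entries. Some of those sites were thus counted more than once, and the pairs are not independent. The median levels were 13.5% for the members and 44% for the sites with an mRNA level, and the median difference was −34 points in the pool, −34 in set 1 and −34.5 in set 2. The exception was para X:16365262, at 48%, against 35% at a site 36 bases away. At the 14 pairs on adjacent bases the member was lower in 14 of 14, in the pool, in both sets, and in FM7a and yw males. Their medians were 12.5% and 53%. The widest gap was in Shab, where 3L:2941311 was at 9% and 3L:2941312 at 84%. The narrowest was in cpx, encoding the fusion clamp complexin, with 11% at 3R:123239 and 25% at 3R:123240. Genomic coverage was alike within the adjacent pairs, with a median difference of 0 reads and a range of −1 to 2. Adjacent bases share most of their genomic reads, so this likeness is no check on the read depth of the RNA levels.

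**Figure D4:**
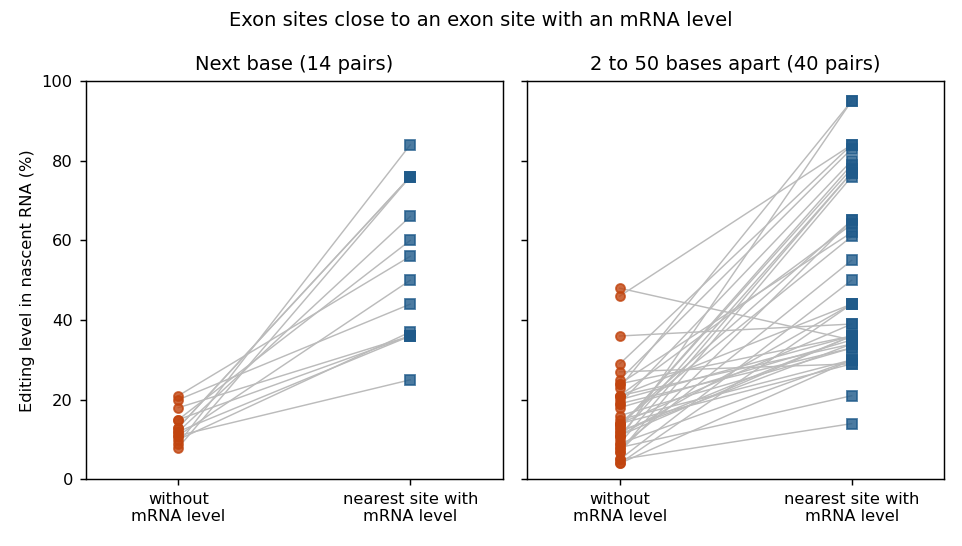
Nascent editing level (percent of reads) of members and of the nearest exon site with an mRNA level in the same gene, joined by a line for each pair. The left panel holds the 14 pairs on adjacent bases and the right panel the 40 pairs 2 to 50 bases apart. All lines rise to the right except that of para X:16365262, where the member is at 48% and the other site at 35%.

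Members also lay next to each other. There were 14 pairs of members on adjacent bases in 12 entries, and 9 of these pairs differed by 10 points or more. The lower site of a pair had a median of 14% and the higher 40.5%. In para X:16412865 was at 10% and X:16412866 at 60%, and X:16367670 was at 47% and X:16367671 at 8%. Syn gave 28% at 3R:6021705 and 55% at 3R:6021706. In cac the sites were at 40% and 13%. The higher level was at the lower coordinate in some pairs and at the higher coordinate in others, and the strand of the gene was not used.

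Listed sites were joined into runs where the gap between neighbours was at most 50 bases. The members fell into 217 runs, of which 138 were members on their own, 58 held 2 sites and 21 held 3 or more. In 39 runs members and exon sites with an mRNA level occurred together, and in 37 of these every member was below every site with an mRNA level. The exceptions were runs of para and nAcRalpha-34E. A further 40 runs held members only, with 87 members, and no run held an intron site. The run with the most sites was in NaCP60E, with 7 sites over 82 bases from 2R:20802315 to 2R:20802397. Its 4 members were at 7%, 7%, 18% and 24%, interleaved with 3 sites with an mRNA level at 65%, 76% and 36%. In nAcRalpha-34E a run of 6 sites over 45 bases held 3 members at 25%, 46% and 29%, among sites at 83%, 26% and 84%. CG10077, a gene of the RNA helicase family, had 4 sites over 22 bases, with members at 4% and 9%, against 30% and 33%. CG33464 had a run of 4 members at 65%, 41%, 12% and 30%. CG42540 had a run of 4 sites over 24 bases with members at 4% and 20%, against 34% and 44%. High and low sites thus stood side by side in these runs.

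The male libraries addressed whether the listed changes depend on Adar. The members had median levels of 0% in ADAR0 males, 8% in FM7a males and 10% in yw males, against 0%, 34% and 39% at the exon sites with an mRNA level. In ADAR0 males 253 of the 277 members with a level (91.3%) were at 0%, against 81.9% of the exon sites with an mRNA level and 88.1% of all listed sites, so the members' share was near that of the table. Each strain had 1 pooled level per site, so no replicate error exists for these comparisons, and a difference of 10 percentage points or more was counted as a change.

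Set against FM7a, ADAR0 levels were lower at 223 of 274 members, higher at 10 and the same at 41. Over all listed sites with both levels they were lower at 1061 of 1333, higher at 32 and the same at 240. At 40 members both strains were listed at 0%. The difference had a median of −8 points at the members and −11 points over all listed sites. ADAR0 was lower by 10 points or more at 120 members (43.8%), against 54.9% of all listed sites with both levels and 89.9% of the exon sites with an mRNA level. It was higher by 10 points or more at 1 member (0.365%), against 0.225% of all sites. Set against yw, ADAR0 levels were lower at 241 of 277 members with a median difference of −9 points. Over all listed sites with both levels they were lower at 1160 of 1338, with a median difference of −15 points. ADAR0 was lower by 10 points or more at 136 members (49.1%), against 63.5% of all sites, and higher at 2 (0.722%), against 0.747% of all sites. The members' shares were thus below those of the table for losses and close to them for gains. A member with a control level under 10% cannot fall by 10 points, and 151 members were under 10% in FM7a males and 139 in yw males.

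Set against yw, FM7a levels were lower at 163 of 274 members, higher at 87 and the same at 24. Over all listed sites with both levels they were lower at 774 of 1336, higher at 426 and the same at 136. The difference had a median of −2 points at the members and over all listed sites. FM7a was lower by 10 points or more at 51 members (18.6%), against 25.3% of all sites, and higher at 18 (6.57%), against 10.6% of all sites. The shares of members fell below those of the table in both directions. A site under 10% in yw males cannot be lower by 10 points in FM7a males. That held for 49.8% of the members, against 35.9% of all sites with a yw level. The small-scale yw male preparations also read lower than the light:dark pool of the same strain. The median difference was −6 points at the members, −9.5 points at the exon sites with an mRNA level and −5 points over all listed sites. Sex, scale of preparation and sequencer cannot be told apart in that comparison, and no time of day was labelled for the males. Every listed site was at 4% or more in the light:dark pool, while 163 were at 0% in yw males. Whether the listing itself depends on the light:dark level was not tested.

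**Figure D5:**
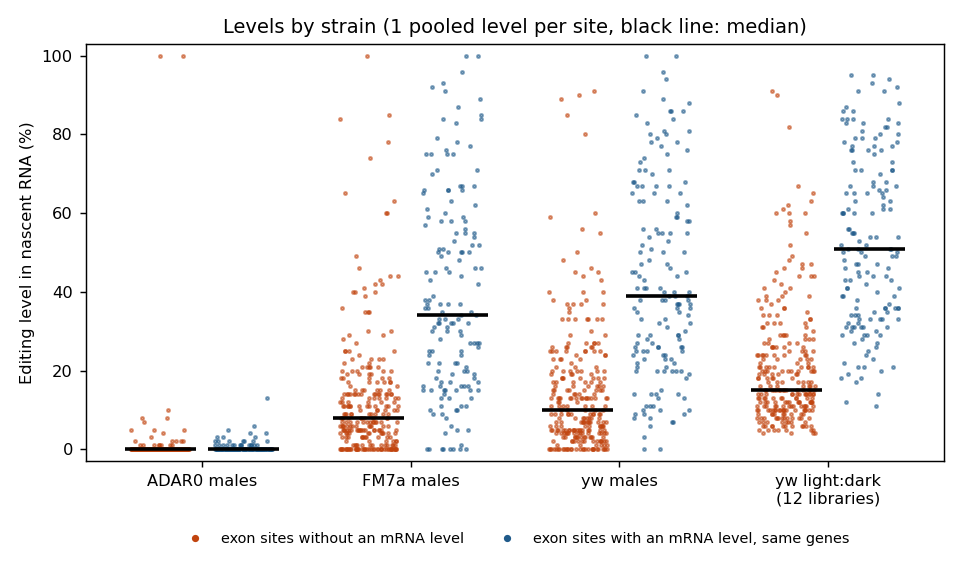
Editing level (percent of reads) of each site in ADAR0, FM7a and yw males and in the yw light:dark pool, with 1 pooled level per site and strain and a black line at the median. In each pair the left points are the members and the right points the exon sites of the same genes with an mRNA level. Members have medians of 0%, 8%, 10% and 15% in that order, and 2 members stand at 100% in ADAR0 males.

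Members at 20% or more in ADAR0 males numbered 2. In CG16791, named aus in RefSeq, 3R:17147687 was at 100% in ADAR0 males, 100% in FM7a males and 26% in yw males, and at 29% in each light:dark set. In norpA, X:4253674 was at 100% in ADAR0 males, 0% in FM7a males and 1% in yw males, and at 5% and 7% in the light:dark sets. The next highest level of a member in ADAR0 males was 10%, in pan. Genomic DNA was sequenced from yw flies only.

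A further deposited mark records whether a site was found in each of the 4 control male libraries, FM7a and yw. It was set for 130 members (46.6%), against 129 of the 160 exon sites with an mRNA level (80.6%), 28.3% of the intron sites and 45.1% of all sites. The share was larger at higher nascent levels. It was 26.9% for members under 10%, 42.1% for those at 10% to 19%, 57.6% at 20% to 29%, 59.0% at 30% to 49% and 73.3% at 50% or more. In the same bins the exon sites with an mRNA level stood higher, with 57.1% of 7 sites at 10% to 19% and 81.2% of 16 at 20% to 29%. Their share was 75.5% of 53 at 30% to 49% and 85.7% of 84 at 50% or more. Levels were not matched within the bins. In the top bin the median was 61% for the members and 70.5% for the sites with an mRNA level. At 10% to 19% the medians were 13% and 17%, at 20% to 29% they were 24% and 25.5%, and at 30% to 49% they were 38% and 37%. Intron sites of the same genes stood below the members in each bin, with shares of 17.3%, 21%, 31.9%, 38.3% and 53.8% from the lowest bin up.

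The 15 members at 50% or more lay in 13 entries, and 12 of them were in genes that also had a site with an mRNA level. Their medians were 0% in ADAR0 males, 43% in FM7a males and 48% in yw males, and 11 of them were seen in all 4 control male libraries. Besides the sites of Ca-alpha1D, GluClalpha, Ca-alpha1T, CG33464, para, eag, pan, Syn and Rim given above, they included a member of CG43707 at 63%, of the cation channel gene trpm at 62%, of the gap junction gene shakB at 60% and of Rlip, a partner of the Ral GTPase, at 57%. Rlip had members at 57% and 38%, against 50%, 70% and 47%, and its ranges overlapped. At the low end, members at 4% were listed in CG10077, CG42540, Msp-300 and unc-13. All 4 were at 0% in ADAR0 males and also at 0% in FM7a males. In yw males they were at 0%, 4%, 3% and 1% in that order, so no loss in ADAR0 can be read from them. The entry CG32377/CG34416, which joins overlapping genes, had a member at 5%. CycG, a cyclin gene, had members at 7%, 8% and 5%, against 27% and 14%.

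Besides Rim, the members with the widest gaps between sets were in trpm, vav, crol and CAP. The trpm site 2R:11151551 was at 48% in set 1 and 27% in set 2. In vav, a guanine nucleotide exchange factor gene, the levels were 54% and 35%. They were 32% and 17% in crol, a zinc finger gene, and 43% and 29% in CAP, an adaptor gene. Set 1 was higher at these 4 sites. The CAP gap of 14 points was tied with other members, among them a site of Sin3A at 3% in set 1 and 17% in set 2. That Sin3A site was at 8% in ADAR0 males, 3% in FM7a males and 5% in yw males.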

How the data were processed

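Editing levels were deposited by the authors as fractions of reads with the edited base, taken after pooling libraries and rounded to hundredths, per the file headers, and were multiplied by 100 here. Coverage in genomic DNA was deposited as a read count, per the file headers. Per the submitters' processing notes the build was dm3, with TopHat, CASAVA 1.6 and, for male libraries, CASAVA 1.8. How sites were called is not described in the sources used, nor whether positions count from 0 or 1.

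Python 3.11.15 with pandas 2.3.3 was used. Sites were grouped by gene identifier, medians taken within entries, and distances taken between listed positions on a chromosome. These steps were tested on simulated tables. Gene names were those of the table, and 100 of 105 identifiers matched RefSeq Release 6, used for names only. No replicate levels exist outside the nascent sets, so no test was run. The members and gene lists were chosen with earlier results of these data known. Named are the 10 entries with the most members, the 5 highest and 5 lowest members, the 5 runs with the most sites, the 5 widest gaps between sets, members at 20% or more in ADAR0, among entries with at least 2 sites of each kind the 5 extreme differences in each direction, and up to 3 genes per list. Other genes named were chosen after their values were seen. Alternatives were each replicate set alone, other weights, level minimums and distances.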

Additional observations from a re-analysis of the deposited data

How the results depend on the processing

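Of 34 values under alternative choices, 15 stayed within the tolerance set for the result, 19 moved and 0 changed sign. Median levels and shares cannot be negative, so a change of sign was possible for the differences only. For the 2 nascent results the tolerance came from the difference between the replicate sets. For the male differences it was 1 percentage point, the rounding step of the levels, and not a measured error. For shares of members it was a 95% binomial interval, which treats sites as independent although they are not. The members' median nascent level of 15% became 17% as a median of gene medians, 16% with no minimum of listed sites, 19% over sites at 10% or more and 16% without para, and was 15% to 16% with either replicate set left out. The difference from exon sites of the same genes with an mRNA level, −32 points, became −36 as a difference of medians over all sites, −35.25 in genes with 2 or more sites of each kind and −34.25 at sites seen in all control male libraries, and ran from −34 to −31.75 with a set left out. The share of members within 50 bases of a listed site, 50.54%, became 41.22% at 20 bases, 58.06% at 100, 66.67% at 200 and 39.07% with members only as neighbours. ADAR0 minus FM7a, −8 points, became −10 without sites at 0 in both and −13.5 at sites seen in all control male libraries. ADAR0 minus yw, −9 points, became −12 and −17 in the same order, and −11.75 as a median of gene medians. The share of members seen in all control male libraries, 46.59%, became 60.18% at 20% or more. The causes of these shifts were not tested. No paired analysis was possible because the deposited levels are pooled over replicates and no test was run. Unknown read depth limits every level, and the male and mRNA levels carry no replicate error.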

Other observations

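The genes mbl, DIP1 and ssx were in no list and were chosen after their values were seen. The splicing regulator gene mbl had 6 members at 12% to 42% with a median of 26%, against 42% at its site with an mRNA level. In DIP1, a gene for a protein that binds duplex RNA, 5 members lay within 309 bases of X at 11% to 24%, against 36%, and the set medians of the members were 23% and 13%. The gene ssx, a relative of the splicing regulator Sxl, had 4 members at 12% to 24%, against 43% at its site with an mRNA level. That ssx site was at 55% in set 1 and 31% in set 2.

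Some members had no level in 1 or more male strains. The 2 members of elav, X:410982 and X:410997, had no level in ADAR0 or FM7a males, and were at 0% and 25% in yw males. In the light:dark sets they were at 11% and 15%, and at 11% and 13%.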
